A study of Mus musculus with 16 samples.

Results

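The 80 genes described here encode the nuclear part of the mitochondrial respiratory chain and of the ATP synthase. They are every gene of the array with a probe set of 1 symbol that starts with Nduf, Uqcr, Cox4, Cox5, Cox6, Cox7, Cox8 or Atp5, 80 of 12393 named genes, each read from the brightest of its probe sets. By complex they comprise 33 genes of complex I, 8 of complex III, 17 of complex IV, 17 of complex V (the ATP synthase) and 5 Ndufaf genes, whose proteins assemble complex I and stay out of the finished enzyme. Ndufa4, named as a complex I gene but now known as a subunit of complex IV, was counted with complex IV, as was Cox7a2l, which helps join complexes III and IV.

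The arrays held RNA from quadriceps muscle and liver of female mice of 4 to 5 months that had fasted for 18 h, either Klf15-null (knockout) or wild type, with 4 arrays in each of the 4 groups. The gene missing in the knockouts, Klf15, encodes a Krüppel-like transcription factor that binds DNA through zinc fingers. The sources used here give neither the strain nor the allele, and all 4 groups share the fast. The labels number the samples without stating that every one is a different animal, so the p-values cover the variation among these samples, which may be technical.

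Complex I takes electrons from NADH, complex III passes them from ubiquinol to cytochrome c, and complex IV hands them to oxygen, while all of them pump protons across the inner membrane. The ATP synthase lets the protons flow back through its ring of c subunits and makes ATP in its catalytic head. Most subunits are encoded in the nucleus, a core is encoded in mitochondrial DNA, and muscle and liver differ in which paralogue of some complex IV subunits they use. Liver needs this energy for gluconeogenesis in a fast, and working muscle for contraction.

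The arrays differed in brightness. Median signals lay between 41.6 and 48.9 on the liver arrays and between 32.5 and 59.2 on 7 of the quadriceps arrays, but at 15.6 on knockout quadriceps 8, the one with a scan 3 days later. The ratio of 3' to 5' Gapdh signal, which reflects RNA integrity, reached 1.09 there. It ranged over 0.785 to 0.790 for the remaining knockout quadriceps and over 0.855 to 0.937 for wild-type quadriceps. Spearman correlations between arrays ranged from 0.882 to 0.956 in quadriceps and from 0.946 to 0.960 in liver. Knockout arrays were all washed on fluidics station 1 and wild-type arrays all on station 2, which means that genotype and station cannot be told apart. The brightest member had 7781 to 11621 signal units on an array, where the brightest probe set of any kind had 11000 to 14306.

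Klf15 itself checked the labels. In quadriceps its signal, quantile normalized over 8 arrays, was 14, 84.5, 88.3 and 46.5 in knockout samples, against 643, 454, 633 and 713 in wild type. Knockout livers had 200.4, 155, 149 and 158, against 1016, 1221, 1280 and 855 in wild-type livers. No knockout sample reached a wild-type one in either tissue, and the log2 change was -3.22 in quadriceps (adjusted p = 0.000356, limma), -3.20 without knockout 8, and -2.60 in liver (adjusted p = 1.08e-07).

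Quadriceps had more respiratory chain transcript than liver in nearly all members. On signals quantile normalized over all 16 arrays, 71 of 78 tested genes were higher in wild-type quadriceps than in wild-type liver, 2 were lower and 5 did not pass the test (limma on log2(signal + 16), Benjamini-Hochberg adjusted p at or under 0.05 over 8115 genes). Among all genes tested, 43.1% were higher and 32.5% lower. The median difference was 0.97 on the log2 scale over the members and 0.17 over all genes. The tissues were hybridised and scanned on different days, so tissue and batch cannot be told apart, and in whole tissue more cells of a type cannot be told from more RNA per cell. Cox6b2 and Cox4i2 stayed below the filter on dim genes, a mean signal of 31.0. In knockout mice 67 members were higher in quadriceps and 3 lower, against 41.2% and 34.8% of all genes, and without knockout quadriceps 8 the counts were 69 and 3, against 40.6% and 35.6%.

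**Figure D1:**
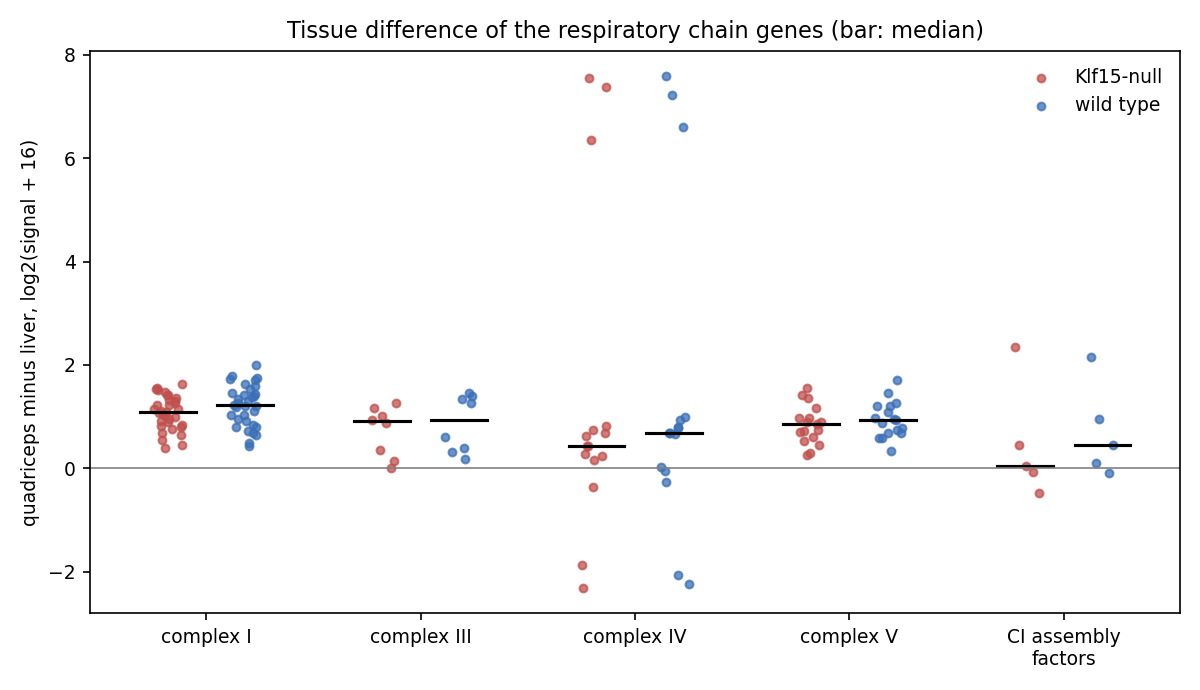
Quadriceps minus liver difference of log2(signal + 16) for each tested member, by complex, in Klf15-null and wild-type mice; bars mark the median of a complex. Most points lie between 0 and 2, and complex IV holds both the 3 highest genes and the 2 genes furthest below 0.

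All 33 complex I genes were higher in quadriceps in both genotypes, with a median difference of 1.22 in wild type and a range of 0.43 to 2.0. Ndufs1, the largest subunit of the electron-input arm and a carrier of iron-sulfur clusters, led them. Its signal was 2716, 2723, 3019 and 2572 in wild-type quadriceps and 674, 647, 723 and 667 in wild-type liver, a difference of 2.0 ± 0.08 (SE), adjusted p = 5.62e-14. The tissues did not overlap, and knockout samples showed the same order, at 2615, 2465, 2148 and 2650.3 in quadriceps and 705, 775, 817 and 839 in liver.

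Most core subunits of complex I carry its cofactors. The flavin- and cluster-bearing Ndufv1 and Ndufv2 differed by 1.38 and 1.58, Ndufs7 by 1.73 and Ndufs3 by 1.20. Ndufs8, a ferredoxin-like cluster carrier, differed by 0.43 (95% confidence interval 0.11 to 0.76) on its brightest probe set, the low end of the range above. That value rests on 1 of 6 probe sets, since the other Ndufs8 sets gave 1.20, 1.09, 1.37, 1.16 and -0.54, the first 2 of them nearly as bright and the last dim. Among accessory subunits Ndufc1 (1.79), Ndufa12 (1.75) and Ndufab1 (1.72), the mitochondrial acyl carrier protein, were highest, and Ndufa6 (0.48) and Ndufa7 (0.63) lowest.

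The 8 complex III genes were likewise all higher in wild-type quadriceps, and 6 of the 8 in knockout quadriceps. The core proteins Uqcrc1 and Uqcrc2, the Rieske iron-sulfur protein Uqcrfs1 and the small Uqcr10 differed by 1.40, 1.46, 1.26 and 1.34. The small subunits Uqcr11, Uqcrh, Uqcrq and Uqcrb differed by 0.60, 0.39, 0.31 and 0.18. On its brightest probe set Uqcrb had 9685, 10466, 9504 and 9396 in wild-type quadriceps, against 8865, 8409, 9116 and 8097 in wild-type liver, and its second probe set, dimmer but above the filter, gave a difference of 0.90. Uqcrb averaged 9298 ± 183 in knockout quadriceps and 9335 ± 376 in knockout liver (SD, n = 4).

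All 17 genes of the ATP synthase were higher in wild-type quadriceps, with a median of 0.93. In the catalytic head Atp5a1, Atp5b, Atp5c1, Atp5d and Atp5e differed by 0.87, 0.59, 1.19, 0.77 and 1.27. The c ring is built from 1 mature protein that 3 genes encode. Atp5g1 was 4678 ± 438 in wild-type quadriceps and 1426 ± 99.6 in wild-type liver (mean signal ± SD, n = 4), a log2 difference of 1.70 ± 0.08 (SE), adjusted p = 2.6e-13. Atp5g2 was 2575 ± 118 and 1344 ± 90 in the same groups, a difference of 0.93. Atp5g3 was 6536 ± 319.9 and 5176 ± 165, a difference of 0.33 and the smallest of the complex.

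Complex IV was the most varied, with 10 of 15 tested genes higher, 2 lower and 3 not past the threshold, and its extremes were the paired heart and liver paralogues. Cox6a2, Cox7a1 and Cox8b encode the isoforms of striated muscle, Cox8b being also known from brown fat. Cox6a1, Cox7a2 and Cox8a encode the widespread ones. The promoter windows of 2 muscle genes and of the 2 widespread genes that were lower in muscle are printed to show the sequence at the starts of genes on opposite sides of the tissue difference. Each window runs from 250 bases before the annotated start to 50 after it, 5′ to 3′ on the gene's strand, from RefSeq on GRCm38.p6. Cox7a1 lies at chr7:30183921-30184220 on the plus strand, and Cox8b at chr7:140900397-140900696, Cox6a1 at chr5:115348909-115349208 and Cox8a at chr19:7217567-7217866, all on the minus strand. In the first 2, capitals mark matches of the E-box CANNTG, bound by muscle bHLH factors among others. In the other 2 they mark GCGCATGC or its reverse complement, the core of a consensus for the respiratory regulator Nrf1 (both orientations overlap here), and CCGGAAG or its reverse complement, a consensus for the ETS factor Gabp.
Cox7a1: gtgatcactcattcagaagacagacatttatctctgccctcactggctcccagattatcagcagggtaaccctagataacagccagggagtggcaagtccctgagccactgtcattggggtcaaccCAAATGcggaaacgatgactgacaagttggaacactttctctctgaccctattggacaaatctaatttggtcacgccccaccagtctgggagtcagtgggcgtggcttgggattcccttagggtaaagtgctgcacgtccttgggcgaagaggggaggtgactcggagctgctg
Cox8b: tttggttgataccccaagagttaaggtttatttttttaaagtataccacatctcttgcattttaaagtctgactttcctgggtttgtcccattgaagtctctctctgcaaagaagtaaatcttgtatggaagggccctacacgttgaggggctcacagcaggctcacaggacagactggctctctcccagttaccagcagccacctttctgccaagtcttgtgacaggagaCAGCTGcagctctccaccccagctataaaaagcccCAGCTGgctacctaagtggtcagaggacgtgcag
Cox6a1: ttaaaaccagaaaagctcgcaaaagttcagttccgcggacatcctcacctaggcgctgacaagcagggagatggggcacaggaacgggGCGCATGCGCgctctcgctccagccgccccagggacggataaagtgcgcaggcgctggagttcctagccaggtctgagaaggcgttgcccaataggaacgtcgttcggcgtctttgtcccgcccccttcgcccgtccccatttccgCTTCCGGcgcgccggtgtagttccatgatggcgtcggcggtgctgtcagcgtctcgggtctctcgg
Cox8a: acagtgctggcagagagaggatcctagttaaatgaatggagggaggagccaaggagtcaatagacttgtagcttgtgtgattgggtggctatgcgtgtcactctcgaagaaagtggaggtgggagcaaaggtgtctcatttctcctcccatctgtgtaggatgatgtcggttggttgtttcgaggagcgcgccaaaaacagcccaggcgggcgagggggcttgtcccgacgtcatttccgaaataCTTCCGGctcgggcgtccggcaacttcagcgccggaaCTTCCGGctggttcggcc

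Cox7a1 holds 1 marked E-box and Cox8b 2, Cox6a1 holds 1 overlapping pair of the Nrf1 motif and 1 match of the Gabp motif, and Cox8a holds 2 of the Gabp motif. Cox8a also holds 1 E-box that is not marked, while Cox6a1 holds none. The same letters stand in many other promoters. Of 67 members with a window (72 windows in all), 69.4% of windows held the E-box, against 72.3% of all 32851 windows. The Gabp motif stood in 22.2% against 8.86%, and the Nrf1 motif in 13.9% against 2.71%. The YY1 motif AAGATGG stood in 13.9% against 6.34%, and AAGGTCA, a half-site of estrogen-related receptors, in 8.33% against 4.72%. CCNCNCCC, a form of the CACCC and GC boxes that Krüppel-like factors bind, stood in 61.1% against 49.5%. Among the printed windows it stands, unmarked, in Cox7a1 (2 matches), Cox6a1 (1) and Cox8a (1). Both strands were searched, matches of different motifs can share bases, and a match is only a run of letters.

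Cox8b showed the widest difference of the members. Its signal was 5214, 5339.8, 5199.5 and 5624 in wild-type quadriceps, against 13.3, 11.8, 3.55 and 22.1 in wild-type liver, with the liver values under the filter signal of 31.0. The log2(signal + 16) difference was 7.58 ± 0.14 (SE), adjusted p = 5.07e-19. Set against the filter signal, wild-type quadriceps was at least 172-fold higher.

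Cox6a2 had 7293, 7171, 7873 and 7646 in wild-type quadriceps, against 50.9, 28.3, 39 and 24.1 in wild-type liver, a difference of 7.21 ± 0.18 (SE), adjusted p = 1.62e-17, or at least 211-fold against the liver mean. Cox7a1 had 3387, 3341, 3737 and 3582 and 20.1, 23.5, 15.8 and 22.6 in the same groups, a difference of 6.60 ± 0.11 (SE), adjusted p = 4.93e-20, or at least 113-fold against the filter signal. In all 3 genes every liver sample lay far under every quadriceps sample, in both genotypes.

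The widespread paralogues went both ways. Cox6a1 was 1122, 1088, 1782 and 1190.4 in wild-type quadriceps, against 5379.8, 5434, 5358 and 5249 in wild-type liver, a difference of -2.06 ± 0.12 (SE), adjusted p = 1.09e-11. Cox8a was 258, 256, 276 and 195 in wild-type quadriceps, against 1154, 1203, 1338 and 1152 in wild-type liver, a difference of -2.24 ± 0.14 (SE), adjusted p = 3.48e-11. Both were thus lower in every quadriceps sample, and they were the 2 members that passed the test in that direction. Cox7a2, the partner of Cox7a1, was higher in quadriceps instead, at 7171, 6715, 6773 and 6570.2, against 4321, 4108, 4483 and 4114 in liver (0.68 ± 0.06 (SE), adjusted p = 6.43e-09).

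**Figure D2:**
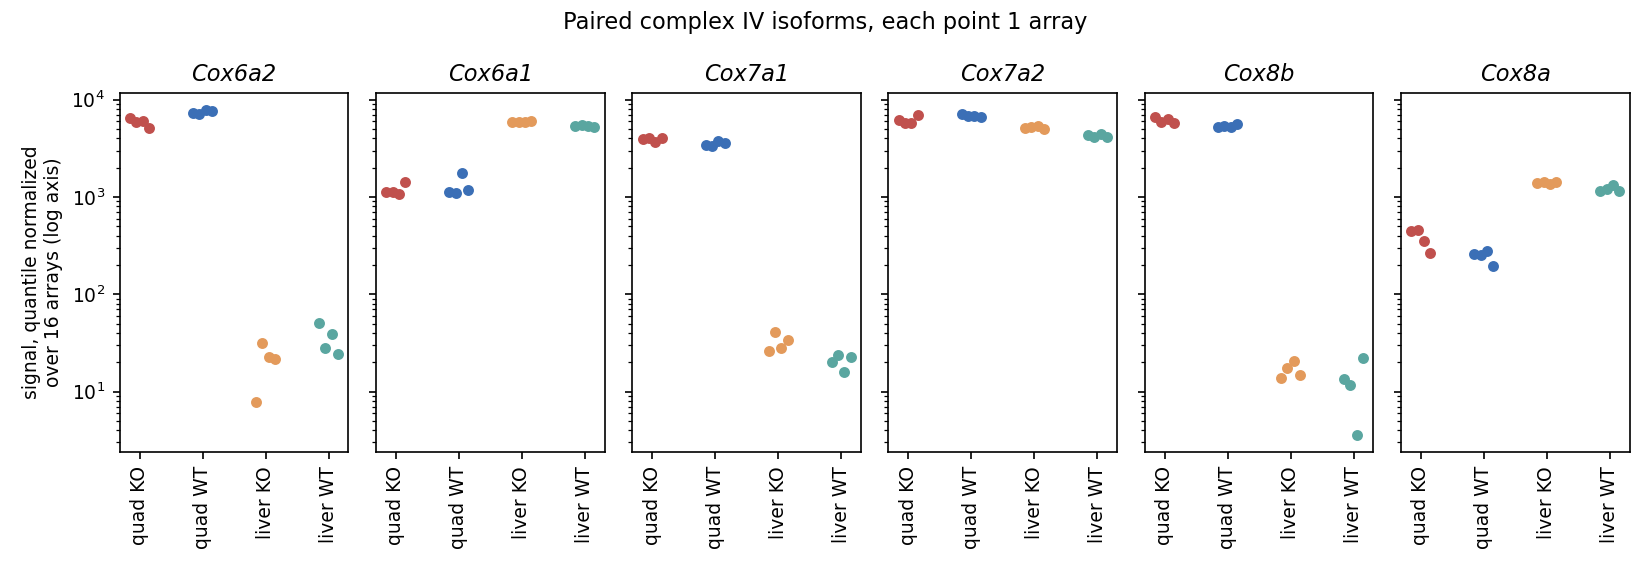
Signal of 3 pairs of complex IV paralogues on each of the 16 arrays (log axis), quadriceps and liver, Klf15-null (KO) and wild type (WT). Cox6a2, Cox7a1 and Cox8b lie far higher in quadriceps than in liver, where they are near or under the filter signal of 31.0, Cox6a1 and Cox8a are lower in quadriceps, and Cox7a2 is somewhat higher there.

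Other complex IV genes had no such split. Cox4i1, the main form of subunit IV, was 7091 ± 135 in wild-type quadriceps and 4087 ± 122 in wild-type liver (SD, n = 4), a difference of 0.79, and Cox6b1 differed by 1.0. Cox4i2, known from lung, was 25.4 ± 5.57 and 9.9 ± 7.83, and the testis form Cox6b2 17.4 ± 9.09 and 14.5 ± 4.06, all under the filter signal in these means. Ndufa4 (0.02, interval -0.23 to 0.28), the testis form Cox8c (-0.26) and Cox7c (-0.05) did not pass the test. Cox7c was read only from a dim probe set, at 35 ± 6.1 and 36.8 ± 8.28.

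Of the 5 complex I assembly factors, 3 were higher in wild-type quadriceps. Ndufaf5, which modifies Ndufs7, differed most, at 275, 257, 228 and 234 in wild-type quadriceps, against 38.6, 41.6, 52.6 and 40.3 in wild-type liver (2.16 ± 0.14 (SE), adjusted p = 7.49e-11). Ndufaf1 differed by 0.96 and Ndufaf4 by 0.45, whereas Ndufaf3 (0.10) and Ndufaf7 (-0.09) did not pass. In knockout mice Ndufaf7 was lower in quadriceps (-0.47 ± 0.12 (SE), adjusted p = 0.00128).

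Without Klf15, liver showed a few respiratory chain transcripts at higher levels. The changes that passed the test were between 0.20 and 0.51 on the log2 scale. Of 77 members tested, 6 were higher in knockout livers, 0 were lower and 71 did not pass, with 23 at an unadjusted p under 0.05 (limma on deposited signals). Among all 7987 genes 4.87% were higher and 5.26% lower, so the share of members called in either direction, 6 of 77, was not above the 10.1% of all genes. Cox4i2, Cox6b2 and Cox8b were under the filter here. With quantile normalization of the liver arrays 18 members were higher, the 6 among them, and 0 lower, against 6.44% of all genes in each direction. Log2 differences were above 0 in 55 of the 77 members, against 54.5% of all genes, with a median of 0.09 against 0.03. In 15 members every knockout liver was above every wild-type one and in 1, Ndufa1, below (8.44% and 7.5% of all genes).

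Uqcrc2, a core protein of complex III, had the largest change of the 6. Its signal was 2229.8, 2090.2, 2038 and 1736 in knockout livers, against 1554, 1404, 1378 and 1310.5 in wild-type livers, a log2 change of 0.51 ± 0.09 (SE), adjusted p = 0.00305 (limma). Knockout samples were all above wild-type ones. Its other probe set, at a mean signal of 1205, gave -0.01, and the mean of both gave 0.25 (adjusted p = 0.0823), so the call rests on 1 of 2 probe sets.

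Atp5g1, a c-ring gene of the ATP synthase, had 2162, 2067, 2337 and 2288 in knockout livers, against 1582, 1693, 1630.2 and 1479.5 in wild-type livers (0.47 ± 0.08 (SE), adjusted p = 0.00155). Groups did not overlap, and the gene has a single probe set here. Its c-ring partners Atp5g2 (-0.05, adjusted p = 0.746) and Atp5g3 (0.07, adjusted p = 0.533) did not pass the test. Differences between these 3 genes were not tested.

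Ndufab1, the acyl carrier protein that also sits in complex I, had 1577, 1628, 1719.8 and 1645 in knockout livers and 1297, 1291, 1328 and 1146 in wild-type livers (0.37 ± 0.08 (SE), adjusted p = 0.00811). All knockout samples were higher. Its dimmer probe sets gave 0.23 and -0.13, and the mean of all 3 did not pass (0.16, adjusted p = 0.407).

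Ndufc1, a small membrane-arm subunit of complex I, had 1694, 1899, 2154 and 1894 in knockout livers and 1498, 1420.1, 1721 and 1302 in wild-type livers (0.36 ± 0.10 (SE), adjusted p = 0.0374), with 1 knockout sample below the highest wild-type one. Uqcr10, a small subunit of complex III, had 1499, 1451, 1627 and 1457, against 1166, 1328, 1288 and 988 in wild type (0.34 ± 0.10 (SE), adjusted p = 0.0446). Cox6b1, which lies where 2 complex IV monomers meet, had 4738, 4681, 4913 and 4542, against 4186, 4104, 4180.2 and 3928 in wild type (0.20 ± 0.06 (SE), adjusted p = 0.0409). Uqcr10 and Cox6b1 did not overlap between genotypes. All probe sets of Ndufc1, Uqcr10 and Cox6b1 had values above 0, but these 3 calls were lost in 8 to 12 of 19 alternative settings.

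**Figure D3:**
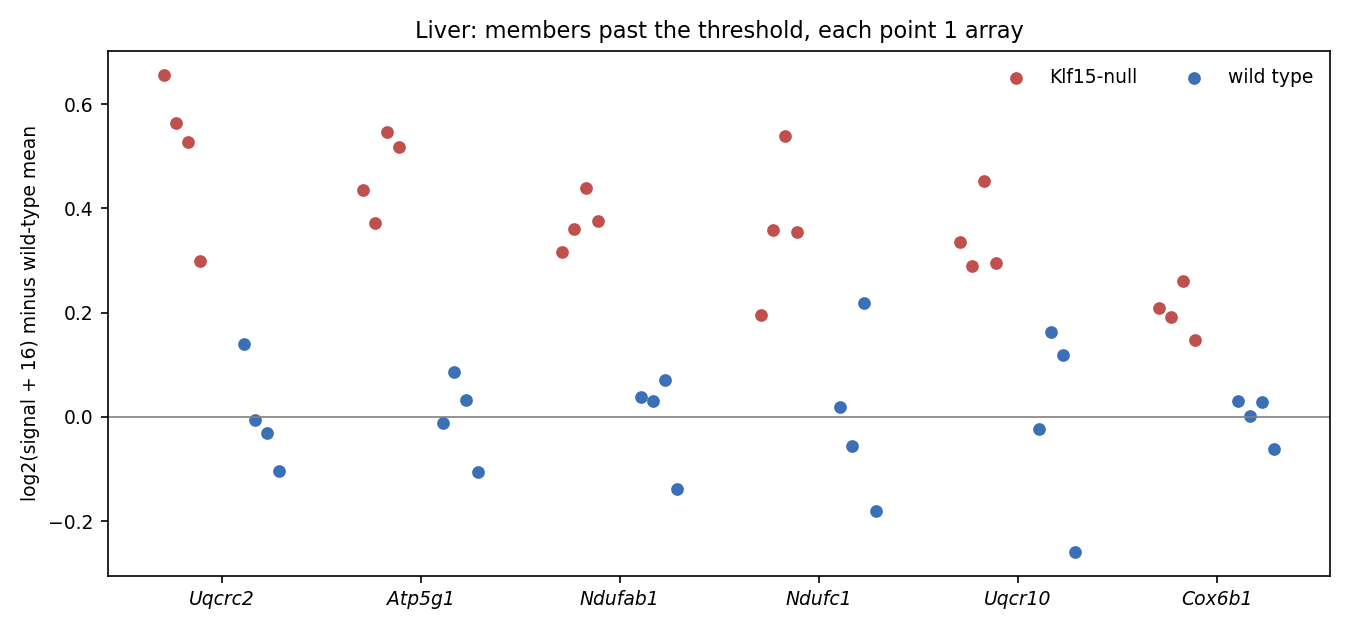
log2(signal + 16) of the 6 members past the threshold in liver, on each array, minus the wild-type mean of the gene; Klf15-null left of wild type. Knockout points lie above 0 in all 6 genes, and the genotypes overlap in Ndufc1 alone.

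By complex, the median change in knockout livers was 0.11 over 33 complex I genes, 0.12 over 8 complex III genes, 0.09 over 14 complex IV genes, 0.07 over 17 ATP synthase genes and 0.19 over 5 assembly factors. The largest upward values that did not pass were Cox7a1 (0.42), with signals of 27.0 to 40.5 in knockout livers and 15.7 to 24.0 in wild type, Atp5md (0.33) and Ndufaf1 (0.30). Downward they were Cox6a2 (-0.53), with signals under 60, Ndufs8 (-0.30) and Cox8c (-0.24). The Ndufs8 value comes from its brightest probe set, and the other sets gave -0.05, 0.01, -0.12, 0.0027 and -0.54. On the brightest set knockout liver 7, at 3143, was above every wild-type liver. Of 40 members with several probe sets, 24 had all of them on the same side of 0.

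Array by array, the median over complex I genes, relative to the wild-type mean of each gene, was 0.10, 0.09, 0.22 and 0.06 in knockout livers and 0.06, 0.0014, 0.10 and -0.15 in wild-type livers. Complex V gave 0.06, 0.0046, 0.11 and 0.01 in knockout livers and 0.07, -0.01, 0.05 and -0.13 in wild-type livers. On these deposited signals genotypes overlapped in complexes I, III, IV and V, and wild-type liver 4 was lowest in each of them. After quantile normalization of the 8 liver arrays they did not overlap. Complex I then ran over 0.07 to 0.20 in knockout livers and -0.05 to 0.06 in wild type, complex III over 0.11 to 0.17 and -0.06 to 0.05, complex IV over 0.12 to 0.18 and -0.06 to 0.05, and complex V over 0.05 to 0.14 and -0.04 to 0.03. For the 5 assembly factors the knockout values, 0.20, 0.16, 0.19 and 0.20, were above the wild-type ones, 0.05, -0.11, 0.09 and -0.14, although none of these genes passed on its own.

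Summed markers of endothelial cells were higher in knockout livers, at 439 to 539 against 353 to 433 in wild type, with 1 of the 5 markers, Kdr, past the threshold (0.49), and summed fibroblast markers at 1853 to 2734 against 1718 to 1801 in wild type. Marco, 1 of 8 macrophage markers, also passed (1.58). Hepatocyte markers summed to 44228 to 48140 in knockout livers and 46878 to 50255 in wild type. Of 6 hepatocyte markers 2, Tat (-0.67) and Cyp2e1 (-0.24), were lower in knockout livers, and all 9 myofibre markers were under the filter. Brown adipocyte markers summed to 101.5 to 165 in knockout and 208 to 347 in wild-type livers. Of these 5 markers 3 were under the filter, and the lower sum rested mainly on Elovl3, which passed the threshold (-1.80). On signals quantile normalized over both tissues, Elovl3 averaged 42.5 in knockout and 185 in wild-type livers. Ppargc1a, the other of the 2 tested, went the opposite way, at 62.1 and 38.4, and did not pass. The part of these differences in the members' changes was not tested.

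In quadriceps the members' calls depended on knockout array 8. With all 8 arrays, quantile normalized, 0 of 79 members passed the limma test (Cox6b2 was under the filter) and 8 had an unadjusted p under 0.05, while 0.826% of all 7989 genes passed. The median change was -0.02 over the members and -0.06 over all genes. Without that array, 3 members were higher and 4 lower in knockout muscle, against 2.99% and 5.27% of all 7991 genes. The medians were then -0.04 and -0.09. Scaling the same 7 arrays to the median, in place of quantile normalization, gave 0 higher and 7 lower members, 2 of them (Ndufaf4 and Ndufa5) shared. The median over all genes was then -0.28, and the share of all genes called with that scaling is not given here. The count of 7 is therefore not read as a result about the members.

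Per-array values below are quantile normalized over 8 arrays, and knockout quadriceps 8 comes last in each knockout list. Folds without it were fitted after normalizing the other 7 arrays alone.

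Ndufa4, the complex IV subunit, had 4778, 4736, 4135 and 2649.7 in knockout quadriceps, against 2753, 2469, 2972 and 2730.3 in wild type. The first 3 knockout samples were above all wild-type ones and the fourth lay among them. The log2 difference was 0.54 ± 0.16 (SE), adjusted p = 0.171 with 8 arrays and 0.71 ± 0.09 (SE), adjusted p = 0.00138 with 7 (limma), but 0.44 (adjusted p = 0.0765) with 7 arrays scaled to the median.

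Cox8a, the widespread form of subunit VIII, had 399, 415, 322 and 239 in knockout quadriceps, against 236, 234, 251 and 179 in wild type. Again 3 knockout samples were above the wild-type range and the fourth was inside it. Its log2 difference was 0.56 ± 0.18 (SE), adjusted p = 0.189 with 8 arrays and 0.71 ± 0.14 (SE), adjusted p = 0.0156 with 7. A second bright probe set gave 0.24 with 7 arrays and the mean of probe sets by 0.22 (adjusted p = 0.341), and median scaling gave 0.39 (adjusted p = 0.111).

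Cox6a2, the muscle form of subunit VIa, had 6484, 5755, 6027 and 5069 in knockout quadriceps, against 7390.5, 7254, 8137 and 7839.6 in wild type. Every knockout sample was below every wild-type one, number 8 the lowest. The log2 difference was -0.40 ± 0.08 (SE), adjusted p = 0.0517 with 8 arrays and -0.31 ± 0.07 (SE), adjusted p = 0.0228 with 7, and -0.52 (adjusted p = 0.064) with 7 arrays scaled to the median. The other muscle forms had values in the opposite direction that did not pass with 7 arrays, Cox8b 0.24 (adjusted p = 0.0642) and Cox7a1 0.13 (adjusted p = 0.284).

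Uqcr11, a small subunit of complex III, had 3758, 3532, 3301 and 2888 in knockout quadriceps, against 2888, 2849, 2987 and 2864 in wild type (0.27 ± 0.07 (SE), adjusted p = 0.0438 with 7 arrays). Its direction turned with median scaling, to -0.02. Cox7a2 had 6089.7, 5624, 5658 and 7089, against 7254, 6789, 6845 and 6589 in wild type (-0.24 ± 0.06 (SE), adjusted p = 0.0461 with 7 arrays). In both genes knockout 8 stood inside the range of wild type or at its edge while the other knockout samples stood outside it.

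Ndufa5, an accessory subunit of complex I, had 2502, 2342, 2389 and 3033 in knockout quadriceps, against 2864, 2993, 2982 and 2831 in wild type (-0.27 ± 0.07 (SE), adjusted p = 0.0457 with 7 arrays). Ndufaf4, an assembly factor, had 229.9, 259.9, 250.4 and 325, against 328, 332, 349.9 and 337 in wild type (-0.42 ± 0.11 (SE), adjusted p = 0.0363 with 7 arrays). For Ndufaf4 all knockout samples were below wild type, number 8 by little, whereas for Ndufa5 number 8 was the highest sample of all. A second probe set of Ndufaf4 gave -0.58 and that of Ndufa5 -0.11.

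**Figure D4:**
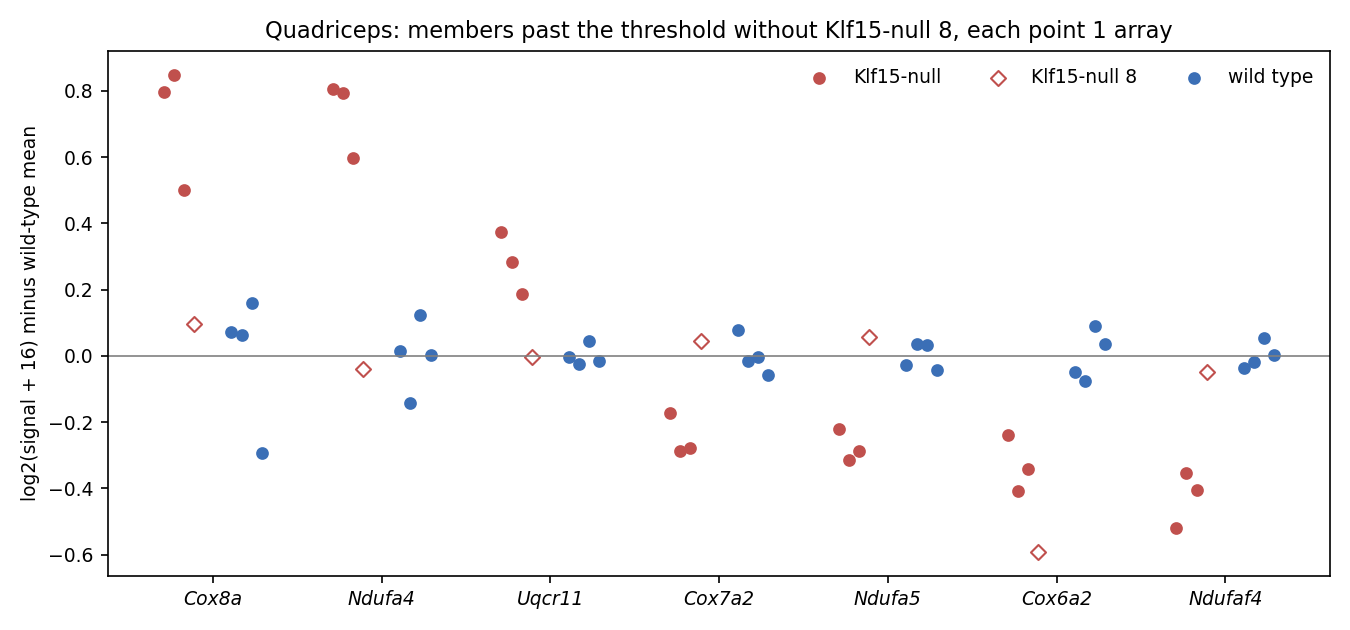
log2(signal + 16) of the 7 members past the threshold in quadriceps without Klf15-null 8, on each array of the 8-array normalization, minus the wild-type mean of the gene; Klf15-null left of wild type, open diamonds mark Klf15-null 8. The diamond lies near the wild-type points in 6 genes and apart from them in Cox6a2.

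By complex, with 7 arrays, medians were -0.07 for complex I, -0.02 for complex III, -0.07 for complex IV, -0.0061 for complex V and -0.17 for the assembly factors. With 8 arrays they were -0.0052, -0.01, -0.05, 0.01 and -0.10 in the same order. Without knockout 8 the genotypes did not overlap in 8 members higher and 15 lower in knockout quadriceps (7.71% and 16.6% of all genes), and with it in 2 and 4 (2.37% and 6.07%).

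The complex I median of each array was 0.02, -0.09, -0.13 and 0.09 in knockout quadriceps 5 to 8, against 0.03, -0.04, 0.03 and -0.07 in wild type. Complex IV gave -0.06, -0.03, -0.12 and 0.09, against -0.01, -0.02, 0.00072 and -0.04 in wild type. In both complexes knockout 8 was the highest array and knockout 7 the lowest. Complex V gave 0.06, 0.05, 0.02 and 0.06, against -0.04, -0.02, 0.02 and -0.0018 in wild type, with overlap.

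**Figure D5:**
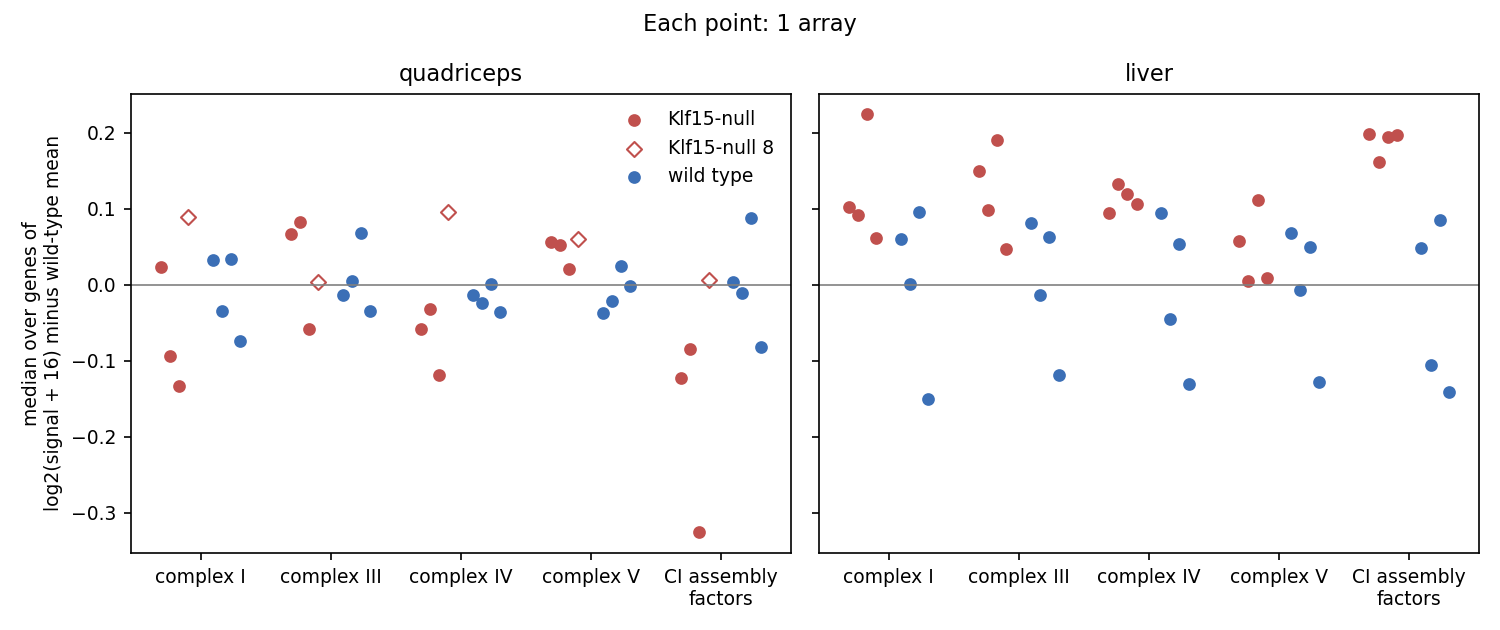
Median over the genes of a complex of log2(signal + 16) minus the wild-type mean, on each array, in quadriceps (left panel, quantile normalized) and liver (right panel, as deposited); Klf15-null left of wild type, open diamonds mark Klf15-null 8 of quadriceps. Most array medians lie within 0.2 of 0, and genotypes overlap in complexes I, III, IV and V of both tissues as plotted, though not in liver after quantile normalization.

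Knockout quadriceps 7 also had a low summed signal of slow fibre genes. Myh7, the slow myosin heavy chain, had 1342, 2065, 60.4 and 1804 in knockout quadriceps 5 to 8, against 1366, 2153, 1381 and 2389 in wild type. The summed signal of 8 slow or oxidative fibre markers was 1408 in knockout 7, and 10144 to 16654 in wild type, while fast fibre markers summed to 96203 to 97820 in knockout and 94552 to 96448 in wild-type quadriceps. Adipocyte markers summed to 3922 to 4508 in knockout and 4713 to 6277 in wild-type quadriceps, with Adipoq past the threshold without knockout 8 (-1.22). Pecam1 also passed there (0.62), but it was the only 1 of 5 endothelial markers above 0, with a median over the 5 of -0.29. Summed endothelial markers were 627 to 812 in knockout and 645 to 859 in wild-type quadriceps. Hepatocyte markers summed to 157 to 271 in knockout and 226 to 319 in wild-type quadriceps. Without knockout 7 as well as 8, 5 members passed, and the share of all genes called in that fit is not given here. The part of fibre type or fat in the members' values was not tested.

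The genotype effects of the tissues were compared in 1 fit of all 16 arrays, as the effect in quadriceps minus that in liver. Of 78 members 6 passed, all with a lower value in quadriceps, against 2.55% of all 8115 genes lower and 1.64% higher. They were Uqcrc2 (-0.52 ± 0.12 (SE), adjusted p = 0.0158), Ndufab1 (-0.49 ± 0.13 (SE), adjusted p = 0.0454), Cox7a2 (-0.43 ± 0.08 (SE), adjusted p = 0.00802), Cox6b1 (-0.38 ± 0.08 (SE), adjusted p = 0.0129), Ndufc2 (-0.36 ± 0.10 (SE), adjusted p = 0.0461) and Atp5c1 (-0.34 ± 0.08 (SE), adjusted p = 0.0216). Of 26 alternative settings, Cox7a2 passed in 24, Cox6b1 in 23, Uqcrc2 in 22 and Atp5c1 in 20, but Ndufab1 and Ndufc2 in 6 each. In the separate fits the 6 genes, in the order above, had log2 changes of 0.01, -0.11, -0.17, -0.11, -0.10 and -0.15 in quadriceps and 0.51, 0.37, 0.19, 0.20, 0.21 and 0.14 in liver. The second probe set of Cox7a2 gave 0.0051 in quadriceps and 0.26 in liver.

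Atp5c1, the central stalk subunit of the ATP synthase, had 6916, 6121, 6595 and 7243 in knockout and 7477, 7725, 7243 and 6981 in wild-type quadriceps. In liver it had 3574, 3929, 3698 and 3654 in knockout and 3113, 3141, 3327 and 3232 in wild type. Knockout livers were all above wild type, whereas the quadriceps groups overlapped. With scaling to the array median 0 members passed (limma, 3 at an unadjusted p under 0.05), and without knockout quadriceps 8 the count was 16, 4 higher and 12 lower, against 4.12% and 7.53% of all genes, with all 6 among them.

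Those 16 added Cox8a (0.53), Ndufa4 (0.42), Ndufa7 (0.34) and Uqcr11 (0.33) on the higher side. On the lower side they added the complex I genes Ndufa13 (-0.53), Ndufs1 (-0.40), Ndufc1 (-0.40), Ndufa5 (-0.38) and Ndufb9 (-0.33), and the assembly factor Ndufaf1 (-0.58). The median over all members was -0.18 without knockout quadriceps 8 and -0.15 with it, against -0.10 and -0.07 over all genes.

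Complex II, the succinate dehydrogenase, feeds the same chain and has 4 genes, all on the array. In knockout livers Sdhb, its iron-sulfur subunit, was lower, at 1489 ± 87.5 against 2444 ± 77.3 in wild type (SD, n = 4), a change of -0.71 ± 0.07 (SE), adjusted p = 4.03e-05. Sdhd, a membrane anchor, was higher, at 2236 ± 209.9 against 1488 ± 113 (0.58 ± 0.09 (SE), adjusted p = 0.00101), and Sdha and Sdhc did not pass. Sdhd also had a lower genotype effect in quadriceps than in liver (-0.61 ± 0.16 (SE), adjusted p = 0.0335). In quadriceps Sdhb had a log2 difference of -0.38 ± 0.10 (SE), adjusted p = 0.111 with 8 arrays and of -0.37 ± 0.10 (SE), adjusted p = 0.0472 with 7.

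Of 9 tested genes for cytochrome c and ubiquinone synthesis, Cycs, the somatic cytochrome c (0.47 ± 0.10 (SE), adjusted p = 0.00788), and Coq7 (0.43 ± 0.10 (SE), adjusted p = 0.0144), a hydroxylase of ubiquinone synthesis, were higher in knockout livers, and none passed in quadriceps with either array set. Cycs differed between the tissues in its knockout effect (-0.50 ± 0.13 (SE), adjusted p = 0.0336). Of 31 tested assembly genes outside the members, 3 were higher in knockout livers, namely Coa3 (0.46), Coa6 (0.50) and Coa7 (0.46), which serve complex IV assembly, and 0 lower, against 4.87% and 5.26% of all genes, with a median of 0.13 against 0.03.

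With 7 quadriceps arrays 2 of the 31 were higher in knockout muscle, Pet100 (0.69) and Tmem70 (0.55), which assist complex IV and the ATP synthase. Lower were 4, the complex III assembly protein Bcs1l (-0.71), Dmac2l (-0.55), the ATP synthase inhibitor Atpif1 (-0.52) and Higd1a (-0.44). Of all genes, 2.99% were higher and 5.27% lower with 7 arrays. With 8 arrays none of the 31 passed. In the comparison of the tissues' genotype effects Coa6 (-0.75) and Dmac2l (-0.73) were lower in quadriceps and Pet100 (0.66) higher.

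Of 14 tested regulators of these genes, 1 was higher in knockout livers, against 4.87% of all genes. It was Esrra, the estrogen-related receptor alpha (0.50 ± 0.12 (SE), adjusted p = 0.0237, limma). In quadriceps with 7 arrays, 2 of 13 were lower and 0 higher, against 5.27% and 2.99% of all genes. The 2 were Ppargc1b, a coactivator (-1.12 ± 0.27 (SE), adjusted p = 0.0317, limma), and Tfb1m, a mitochondrial rRNA methyltransferase (-0.62 ± 0.14 (SE), adjusted p = 0.0285). Ppargc1b had 159, 171, 78 and 243 in knockout quadriceps 5 to 8, against 291, 361, 387 and 197 in wild type, and knockout 8 lay inside the wild-type range. Of 74 mitochondrial ribosome genes, 4 were higher in knockout livers (Mrpl40, Mrpl15, Mrpl13 and Mrpl12, 0.65 to 0.31), 0 were lower and 61 had a value above 0, against 4.87% higher and 54.5% above 0 of all genes. With 7 quadriceps arrays 3 of them were higher (Mrpl50, Mrpl54 and Mrpl32) and Mrpl22 lower, against 2.99% and 5.27% of all genes. Mrpl15, Mrpl40 and Mrps33 had lower genotype effects in quadriceps than in liver (-0.71, -0.64 and -0.44), as did 2.55% of all genes. Of 3 tested adenine nucleotide and phosphate carriers 0 passed within either tissue (limma), but the phosphate carrier Slc25a3 had a lower genotype effect in quadriceps than in liver (-0.41 ± 0.08 (SE), adjusted p = 0.00503).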

How the data were processed

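The authors deposited 1 signal intensity per probe set on a linear scale, and the submitters' processing notes name GCOS as their software. For its version, summary method and scaling, the sources used here give nothing. Of 22626 probe sets that are no controls, 20380 had 1 gene symbol in the platform annotation, and 149 of these belong to the members. Liver signals were used as deposited, quadriceps signals were quantile normalized over 8 arrays and again over 7 without knockout quadriceps 8 (labelled SKM KO8), and comparisons of tissues used quantile normalization over 16. Values were log2(signal + 16), which understates changes of dim genes. Genes with a mean at or above the 40th percentile were fitted with limma 3.58.1 in R 4.3.3 (lmFit, eBayes with a trend), with Benjamini-Hochberg adjustment across every gene fitted and a threshold of 0.05. The fits were also run on simulated data with known changes and independent noise. That simulation held no array-wide shift and no station effect, so it cannot speak to calls that depend on knockout quadriceps 8. The number of arrays limits the precision, and no detection calls were used.

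Named genes were the members past the threshold, per complex up to 3 with the largest changes each way, the isoform families, the 6 largest tissue differences, and listed genes past the threshold. Other members named for the tissue difference, by their place in a complex, and Myh7 were chosen after their values were seen. The members and lists were chosen with earlier results of these data known. Samples were grouped by their titles. Mitochondrially encoded genes were not analysed here.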

Additional observations from a re-analysis of the deposited data

Results flagged for a closer look

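An array that stood apart within its group of 4 was looked for in 100 sets of values, the named members and the complex medians in each tissue and genotype, and chance gives about 1 in 20, or 5 here, the number found. In knockout livers the assembly factor median of sample 6 was 0.16, below 0.19 to 0.20 in the others, and Cox6a1 was 5622 there, against 5928 to 5978. In knockout quadriceps 8 Cox6a1 was 1272, against 937 to 990.5 in the others, and Cox6b1 8598, against 7056 to 7254. In wild-type quadriceps 3 Cox6a1 was 1581, against 954 to 1043. The tests of Cox6a1 in quadriceps thus hold a high sample in each genotype.

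The knockout effect in quadriceps minus that in liver passed the limma interaction test for Uqcrc2 (-0.52), Ndufab1 (-0.49), Cox7a2 (-0.43), Cox6b1 (-0.38), Ndufc2 (-0.36) and Atp5c1 (-0.34). Uqcrc2 had 3729, 3517, 3097 and 3836 in knockout and 3209, 3529, 3723 and 3524 in wild-type quadriceps, and Ndufab1 had 3077, 3412, 3239 and 4282 and 3517, 4114, 4066 and 3282 in the same groups. Cox6b1 had 7171, 6950.2, 7007 and 8219 in knockout and 8327, 7820.2, 7683 and 7433 in wild-type quadriceps. Ndufc2 had 3129.9, 3062, 2971 and 3723 in knockout and 3321, 3303, 3549 and 3445 in wild-type quadriceps, against 2445, 2387, 2380.5 and 2213 in knockout and 1926, 1869.6, 2053 and 1947 in wild-type livers.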

How the results depend on the processing

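Counts of members in this section stand without the share of all genes called in the same setting. The tissue difference kept 67 to 74 members past the threshold in 26 alternatives, and leaving out arrays gave 72 to 73. In liver, 3 members passed with no filter, with no variance trend and with the mean of all probe sets, 18 with quantile normalization, and 12 with all 16 arrays in 1 fit. Leaving out each liver array gave 3 to 5, with 3 without wild-type 1 or 4 or knockout 6 or 8, and without knockout 7 there were 3 higher and 1 lower. Atp5g1 passed in 19 of 19 alternatives, Uqcrc2 and Ndufab1 in 18, Uqcr10 in 11, Ndufc1 in 10 and Cox6b1 in 7.

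In quadriceps with 8 arrays, 1 member passed with a pseudocount of 64, with a filter at the 60th percentile and with no scaling, 2 with all 16 arrays in 1 fit or with the Gapdh 3'/5' ratio as a covariate, and 7 with the scan day as a block, which amounts to leaving out knockout 8. Leaving out each array gave 0 to 7, with 7 without knockout 8, 1 without knockout 5 and otherwise 0 (limma, 6 to 11 at an unadjusted p under 0.05). Scaling to the median without knockout 8 gave 7, all lower. With 7 arrays, 3 passed with no filter, 2 with no variance trend, 4 with the mean of all probe sets and 0 with no scaling (18 at an unadjusted p under 0.05), and leaving out 1 further array gave 1 to 5, with 1 without knockout 6, 2 without wild-type 3, 3 without wild-type 1, 2 or 4, and 4 without knockout 5. Of 15 alternatives for these 7 calls, Ndufa4 passed in 13, Cox8a in 11, Cox6a2 in 8, Ndufaf4 in 7, Uqcr11 in 5, and Cox7a2 and Ndufa5 in 4 each. Cox7a2 turned to 0.013 with median scaling of 8 arrays. Uqcr11 turned to -0.17 with no scaling, to -0.021 with median scaling without knockout 8 and to -0.0069 with no scaling without it. The cause was not tested. The median over all genes was -0.18 with median scaling and -0.48 with no scaling of 8 arrays, against -0.06 with quantile normalization.

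For the difference between the tissues, 3 passed with no filter, 0 with no variance trend (15 at an unadjusted p under 0.05) and 0 with median scaling (3), where the median over all genes was -0.18, against -0.07 with quantile normalization. Leaving out each array gave 3 to 16, with 16 without knockout quadriceps 8 and 3 without wild-type quadriceps 2. Replicate numbers 1 to 8 occur in both tissues, and deviations of the same number correlated between -0.08 and 0.05. Since 2 tissues of 1 animal need not deviate alike, this cannot show whether the numbers pair the samples. The main fits treated the samples as unpaired. With the replicate block the difference between the tissues gave 2 members, and 11 without knockout 8, the liver comparison 12, the quadriceps comparison 2 and the tissue difference 73, with 1 of 8 numbers matching best to itself. A scan-day block for liver was not run, since all its arrays were scanned on 1 day.

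Alternatives for the 7-array set, the quantile normalized array medians of liver, the Gapdh covariate and the block without knockout 8 were chosen after seeing the data. Small changes of bright members were limited by 4 arrays a group, and those of Cox7c, Cox4i2, Cox6b2, Cox8b in liver and Cox6a2 in liver by signals near or under the filter.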
